A study of Mus musculus with 23 samples.

Results

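Cytosolic ribosomal protein genes were followed through RNA sequencing of mouse embryonic hearts at embryonic day 13.5. Members were the genes whose symbols consist of Rpl, Rps or Rplp and a number, with or without a final a, x or l, and they numbered 79 of the 23453 genes in the count table. Of these, 49 encode large-subunit proteins or their paralogs and 30 encode small-subunit proteins or their paralogs. The rule used names only and no measured value. An expression filter on low counts left 75 members among 13941 genes tested.

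The ribosome joins a small subunit, which reads the mRNA, to a large subunit, which forms the peptide bond. Each subunit is a scaffold of ribosomal RNA with many proteins, most of them made from single-copy genes that are transcribed in step and outnumbered by processed pseudogenes. Mammalian ribosomal protein mRNAs typically begin with a cytosine followed by a run of pyrimidines, the terminal oligopyrimidine tract, through which mTOR signalling and LARP1 control their translation. In a growing embryonic heart, ribosomal proteins are among the most abundant transcripts.

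The series compared 3 genotypes of the G protein-coupled receptor kinases GRK2, GRK5 and GRK6, all with the strain label C57BL/6. The 7 triple-knockout hearts were fl/fl for GRK2 and for GRK5, were KO/KO for GRK6, and carried Nkx2.5Cre. The 8 haploinsufficient hearts were fl/wt for GRK2, with fl/fl for GRK5, the GRK6 KO/KO genotype and Nkx2.5Cre, so that they differ from the triple knockout by 1 GRK2 allele and share with it the loss of GRK5 and GRK6 and the presence of Cre. The 8 wild-type hearts were wt/wt at all 3 genes and carried no Cre. Nkx2.5Cre acts in the cardiac lineage, so that GRK2 and GRK5 remain in other cells, whereas the GRK6 allele is labelled as a knockout without flox sites. The labels do not state that replicates came from separate embryos, and the spread that enters the p-values may therefore be technical.

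Library totals were 6657734 to 13864731 counts in triple-knockout, 1757257 to 11025358 in haploinsufficient and 3838166 to 14050559 in wild-type libraries. Cre had 8.21 to 24.9 CPM, counts scaled to library size, in triple-knockout, 9.89 to 24.1 in haploinsufficient and 0 to 0.855 in wild-type libraries. Summed over their single-exon features, which include exons outside the deleted parts, GRK2 (Adrbk1) had a median of 33.9, 46.4 and 54.3 CPM, Grk5 13.2, 14.04 and 23.9 CPM, and Grk6 14.2, 15.7 and 30.4 CPM in triple-knockout, haploinsufficient and wild-type hearts. All 7 heart muscle markers, among them Tnnt2 and Myh7, were above 0 in every library. Marker genes of tissues that neighbour the heart (lung and foregut, liver, thymus) summed to 13.0 to 143 CPM in triple-knockout, 18.2 to 236 CPM in haploinsufficient and 7.39 to 46.5 CPM in wild-type hearts, and 2 of the 10 tested, Foxf1 and Cldn6, rose in haploinsufficient against wild-type hearts (edgeR adjusted p 0.0347 and 0.0428).

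Transcription start windows of 59 members could be matched to RefSeq (build GRCm38.p6) and were searched for the tract. The letters CTTTC, read in the direction of the mRNA, stood within 25 bases before or after the start in 18 members (30.5%). They did so in 971 of 16336 genes (5.94%). The same letters on the other strand, GAAAG, were found in 6.78% of members and 5.20% of all genes. A run of at least 8 pyrimidines was present in 49.2% of members and 19.1% of all genes. These are matches of letters and not mapped tracts. The windows below run from 15 bases before the start, with the longest pyrimidine run in capitals. They are shown for Rplp2, Rps13 and Rps28, which passed the test in a comparison described further on, for the stalk base gene Rplp0, and for Rpl7a and Rpl27a, which have long runs.

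Rplp2 (chr7:141447636-141447665, plus strand): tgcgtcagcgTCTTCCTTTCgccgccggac

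Rps13 (chr7:116334176-116334205, minus strand): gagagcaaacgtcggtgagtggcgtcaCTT

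Rps28 (chr17:33824548-33824577, minus strand): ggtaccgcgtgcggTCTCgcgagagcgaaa

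Rplp0 (chr5:115559452-115559481, plus strand): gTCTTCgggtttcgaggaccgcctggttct

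Rpl7a (chr2:26910792-26910821, plus strand): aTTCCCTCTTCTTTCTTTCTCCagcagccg

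Rpl27a (chr7:109519180-109519209, plus strand): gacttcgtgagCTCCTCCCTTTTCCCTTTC

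Within the printed windows, Rplp2 has a run of 10 pyrimidines, and the longest runs of Rps13 and Rps28 are 3 and 4 bases, that of Rps13 reaching the edge of its window. The RefSeq start of Rps28 lies 64 bases from the start in the annotation used for counting, so that its window may miss the start used in these hearts.

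Levels between genes were compared as CPM per kilobase of merged exon. In wild-type hearts most members lay within a narrow band, with Rplp1 and Rpl41 on top and a short tail of members with few counts. Rplp1, an acidic stalk protein, had 2739 ± 351, and Rpl41, the smallest ribosomal protein, had 2722 ± 366 (SD, n = 8). Rps12 followed with 1572 ± 215 and Rplp0 with 1498 ± 122. Ranges of neighbours in this order rarely separated: in 5 of 78 neighbouring pairs the upper gene's lowest wild-type library exceeded the lower gene's highest. The median coefficient of variation of the tested members among wild-type libraries was 13.1%, against 17.5% for all genes tested.

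**Figure D1:**
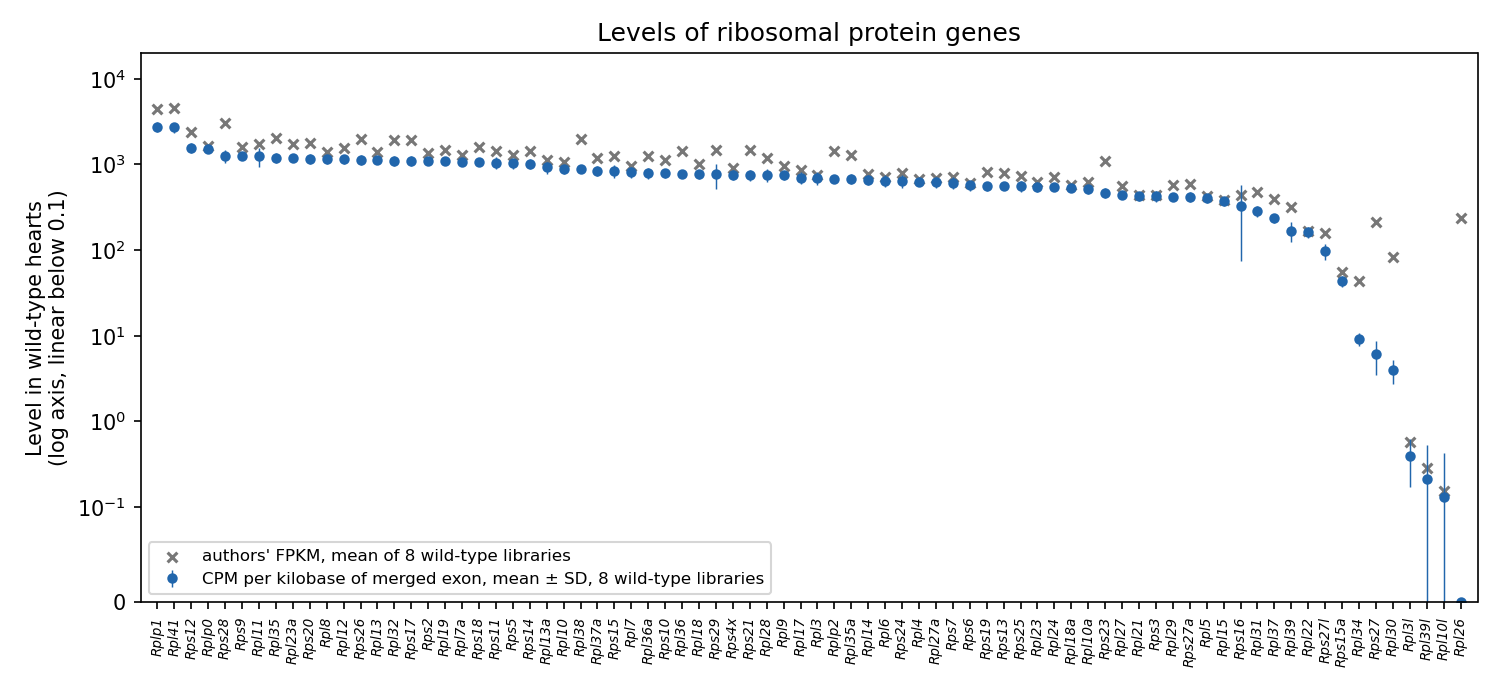
Levels of ribosomal protein genes in the 8 wild-type hearts (all members but 1), ordered by CPM per kilobase of merged exon (circles, mean and SD), with the authors' FPKM (crosses, mean). Rpl26, Rps27, Rpl30 and Rpl34 have far lower counts per kilobase than FPKM.

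Most genes at the lower end were of 2 kinds. Rps15a was of neither kind. It had 184.1 to 272.5 CPM in wild-type libraries but 43.2 per kilobase, over 5134 merged exon bases, the most of any tested member. Rpl26, Rpl30, Rpl34 and Rps27 encode core ribosomal proteins, yet their counts summed over all 23 libraries were 0, 451, 797 and 529. In the annotation used for counting, other genes cover 520 of 543 exon bases of Rpl26, 476 of 626 of Rpl30, 401 of 597 of Rpl34 and 345 of 575 of Rps27. The covering genes Gm15772, Gm12191, Rpl34-ps1 and Gm9846 also had 0 counts. The deposited FPKM of these members averaged 271, 99.9, 43.5 and 107 over all libraries (for Rps27, 62.5 without wild-type replicate 8 at 1085), so that the count table and the FPKM table give different levels for them. The other 7 members with shared exon bases, up to 47.8% of them in Rpl5, had 57245 to 154783 counts, and the part of the overlap in the low counts was not tested.

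The other kind were paralogs with restricted use. Rpl3l, the striated-muscle paralog of Rpl3, had 103 counts in all libraries together, Rpl39l 20 and Rpl10l, the testis paralog of Rpl10, 10, and none of the 3 passed the filter. Rpl3l averaged 0.601 ± 0.303 CPM in triple-knockout (n = 7), 1.26 ± 2.35 in haploinsufficient and 0.635 ± 0.361 in wild-type hearts (SD, n = 8 each), a spread that comes from haploinsufficient replicate 2 at 6.97 CPM. Its parent Rpl3 averaged 986 ± 112, 1061 ± 141 and 946 ± 161 CPM in triple-knockout, haploinsufficient and wild-type hearts. Rps27l, the p53-responsive paralog of Rps27, was expressed at 39.6 ± 5.44, 55.5 ± 17.8 and 44.9 ± 9.43 CPM in triple-knockout, haploinsufficient and wild-type hearts. Rps16, a small-subunit protein, stood apart from the other abundant members by its spread, with 73.8 to 500 CPM in triple-knockout, 35.4 to 456 in haploinsufficient and 21.5 to 382 in wild-type libraries, and a coefficient of variation of 77.0% in wild type. A median of 35.9% of the 50-base windows of a member also occur in transcripts of other genes, and in 26 of 79 members more than 50% do, so that reads may be split with pseudogenes.

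Ribosomal protein genes took 4.18 ± 0.269% of all counts in triple-knockout (n = 7), 4.98 ± 1.03% in haploinsufficient and 4.33 ± 0.443% in wild-type hearts (SD, n = 8 each). The ranges overlapped, at 3.69 to 4.44%, 3.73 to 7.14% and 3.80 to 5.11%. Haploinsufficient replicate 4 stood apart at 7.14%, above the 5.27% of the next haploinsufficient library. It also had the lowest summed heart muscle markers of all libraries, 33240 CPM. In bulk tissue, fewer cells of a type and less RNA per cell cannot be told apart.

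**Figure D2:**
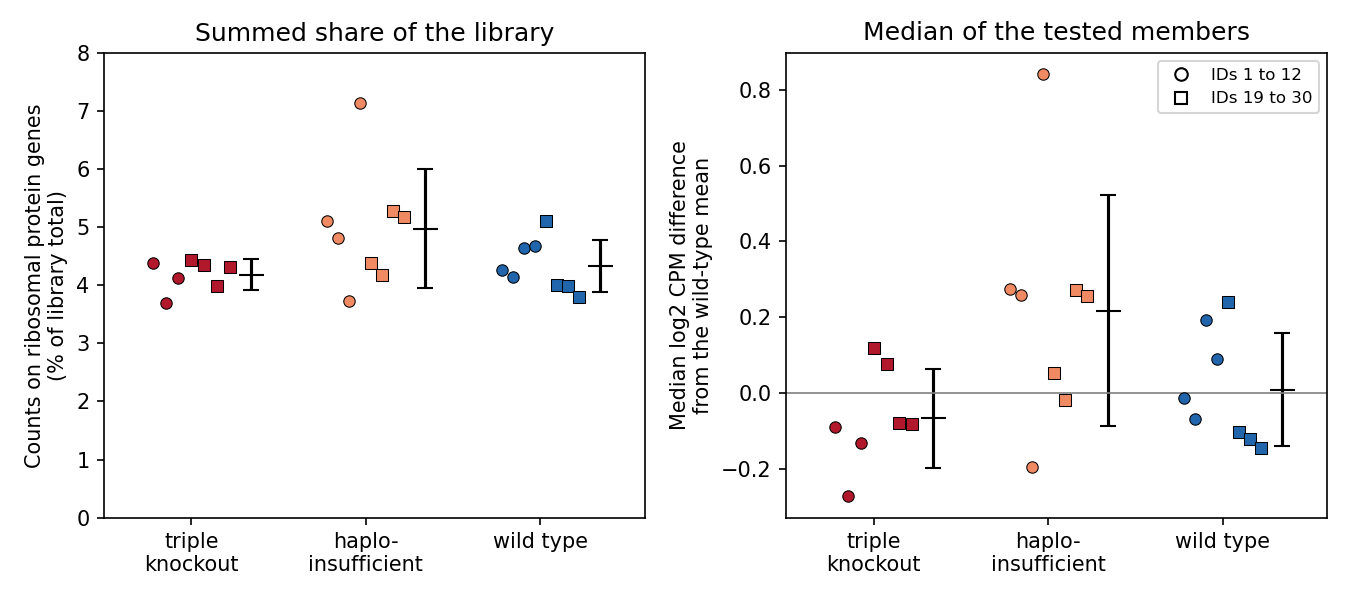
Share of library counts on the 79 ribosomal protein genes (left) and the median log2 CPM difference of the tested members from the wild-type mean (right), per library, with group mean and SD as bars. Circles are library IDs 1 to 12 and squares IDs 19 to 30; 1 haploinsufficient library lies at 7.14% and 0.84.

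In triple-knockout against wild-type hearts, no member passed the test by edgeR (adjusted p under 0.05), where 1.18% of all genes did, 0.689% lower and 0.495% higher. By DESeq2 and by limma the count was also 0. Unadjusted edgeR p was under 0.05 for 6 members (8%), all lower. Of all genes, 10.9% had such a p and 5.42% were lower. The median log2 fold change of the 75 members was -0.07, against 0.01 for all genes tested, and 55 of 75 were negative, against 47.2% of all genes. The 3 genes of the P stalk, which recruits the elongation factors to the large subunit, lay between -0.37 and -0.25. Rplp2 had 207, 232 and 258 CPM as lowest, median and highest of the triple-knockout libraries, and 264, 291 and 343 CPM in wild-type libraries. All triple-knockout libraries lay below all wild-type libraries, which held for 0.531% of all genes, and Rplp2 was the only such member. Its log2 fold change was -0.37 ± 0.12 (SE), with an edgeR adjusted p of 0.168. In a fit of these 2 groups alone, its edgeR adjusted p was 0.0125. The adjusted p was 0.0805 by DESeq2 and 0.353 by limma on log2(FPKM + 1). Of the 23 edgeR fits that left out a single library, 22 put it above 0.05. With offsets corrected for exon length, described further on, its log2 fold change was -0.16 with an edgeR adjusted p of 0.620.

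The other stalk genes had lower values in the same comparison without passing the test. Rplp0, the stalk base, had 1487, 1688 and 1920 CPM as lowest, median and highest of the triple-knockout libraries. In wild-type libraries it had 1875, 1983 and 2382 CPM. Of 7 triple-knockout libraries, 6 lay below every wild-type library, and the exception was replicate 4 at 1920 CPM. Among the 6, replicate 6, at 1875 CPM, was level with the wild-type minimum at this rounding. The log2 fold change of Rplp0 was -0.27 ± 0.10 with an edgeR adjusted p of 0.274. That of Rplp1 was -0.25 ± 0.14 with an edgeR adjusted p of 0.538. The most negative value belonged to Rpl34, at -0.64 ± 0.21, which rests on 22 to 45 counts a triple-knockout library. Rpl5 and Rpl11, which form the 5S RNA particle, had log2 fold changes of -0.08 and 0.10. The 3 proteins near the peptidyl transferase centre, Rpl3, Rpl8 and Rpl10, lay between -0.16 and 0.04.

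In haploinsufficient against wild-type hearts, all 75 members had a positive log2 fold change, against 52.6% of all genes, and 1 passed the test. That share of 1.33% stands against 2.28% of all genes called, 0.918% higher and 1.36% lower, and by edgeR, DESeq2 and limma no member was lower. The median of the members was 0.23, against 0.01 for all genes, and 27 members (36%) had an unadjusted p under 0.05, all higher, where 17.3% of all genes had one and 9.05% were higher. Endothelial markers moved with the group in the other direction: all 4 were negative, Cdh5 at -0.60 and Tek at -0.45 fell (edgeR adjusted p 0.00371 and 0.00506), and their part in the member values was not tested. The member that rose was Rps28, a small-subunit protein at the path of the mRNA. It had 454, 552 and 810 CPM as lowest, median and highest of the haploinsufficient libraries and 321, 418 and 527 CPM in wild-type libraries. Of the 8 haploinsufficient libraries, 6 lay above every wild-type library. The log2 fold change was 0.49 ± 0.12 with an edgeR adjusted p of 0.0273, and it missed the threshold without haploinsufficient replicate 1 or without wild-type replicate 1, 6 or 8, with adjusted p between 0.0560 and 0.0705.

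The size of the common shift depended on haploinsufficient replicate 4. Without it the median of the members was 0.12, 7 members (9.33%, all higher) had an unadjusted p under 0.05, where 9.26% of all genes were higher with such a p, and Rps28 still passed. That library also had the lowest summed endothelial markers, 484 CPM, and the highest summed red cell markers, 18690 CPM. Without haploinsufficient replicate 3, whose member median was -0.20, 7 members (9.33%) rose, namely Rplp2, Rps28, Rpl14, Rps10, Rps13, Rpl36 and Rps23, where 2.03% of all genes did in that fit. The 7 mRNA path members lay between 0.18 and 0.49, the 8 tested exit tunnel members between 0.06 and 0.36, and the 3 stalk genes between 0.05 and 0.28.

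In triple-knockout against haploinsufficient hearts, 3 members fell and by edgeR, DESeq2 and limma none rose, where 0.395% of all genes were called by edgeR, 0.316% lower and 0.0789% higher. No member had groups that did not overlap, which held for 0.0574% of all genes downward and 0.0215% upward. The median of the members was -0.30, against 0.00 for all genes, and 74 of 75 were negative, the exception being Rpl39 at 0.08. Unadjusted p was under 0.05 for 50 members (66.7%), all lower, where 15.4% of all genes had such a p and 8.11% were lower. The 4 endothelial markers were positive here, with a median of 0.28 and none called. These libraries are the same as in the comparisons with wild type, so that the 3 comparisons are not independent.

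Rplp2 had 207, 232 and 258 CPM as lowest, median and highest of the triple-knockout libraries, against 198, 381 and 462 CPM in haploinsufficient libraries. The groups overlapped through haploinsufficient replicate 3, at 198 CPM, and the other 7 haploinsufficient libraries lay above all triple-knockout libraries. Its log2 fold change was -0.65 ± 0.12 with an edgeR adjusted p of 0.0163, and without triple-knockout replicate 3 the adjusted p was 0.0517. In a fit of these 2 groups alone its edgeR adjusted p was 0.0963, and with limma on log2(FPKM + 1) the adjusted p was 0.0880.

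Rps13, a small-subunit protein, had 250.1, 263 and 335 CPM in triple-knockout and 302, 389.9 and 539.8 CPM in haploinsufficient libraries as lowest, median and highest. Of the triple-knockout libraries, 5 of 7 lay below every haploinsufficient library. The log2 fold change was -0.51 ± 0.10 with an edgeR adjusted p of 0.0203, and it missed the threshold without haploinsufficient replicate 1 (0.0530) or triple-knockout replicate 2 (0.0750). Rps20, a protein of the small-subunit head, had 432, 476 and 549 CPM in triple-knockout and 484, 678 and 1061 CPM in haploinsufficient libraries. Its log2 fold change was -0.52 ± 0.12 with an edgeR adjusted p of 0.0414, and 15 of the 23 fits that left out a single library put it above the threshold. With haploinsufficient replicate 3 left out, 17 members (22.7%) were lower, where 1.81% of all genes were in that fit.

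**Figure D3:**
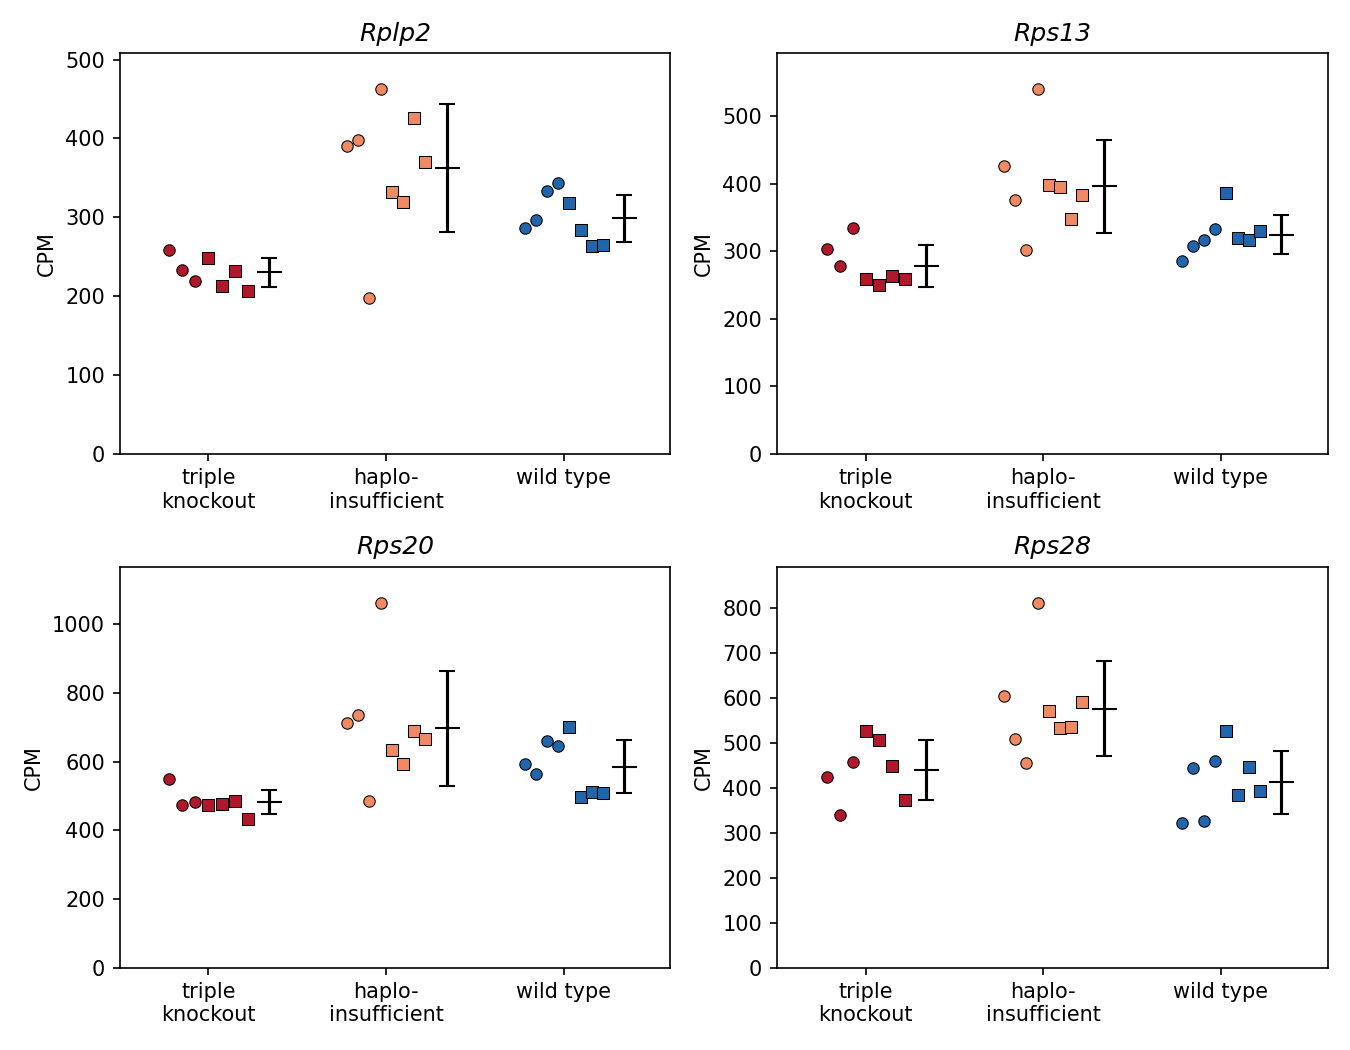
CPM of the 4 members that passed the test in a comparison, per library, with group mean and SD as bars. Circles are library IDs 1 to 12 and squares IDs 19 to 30; the triple-knockout libraries of Rplp2 all lie below the wild-type libraries.

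**Figure D4:**
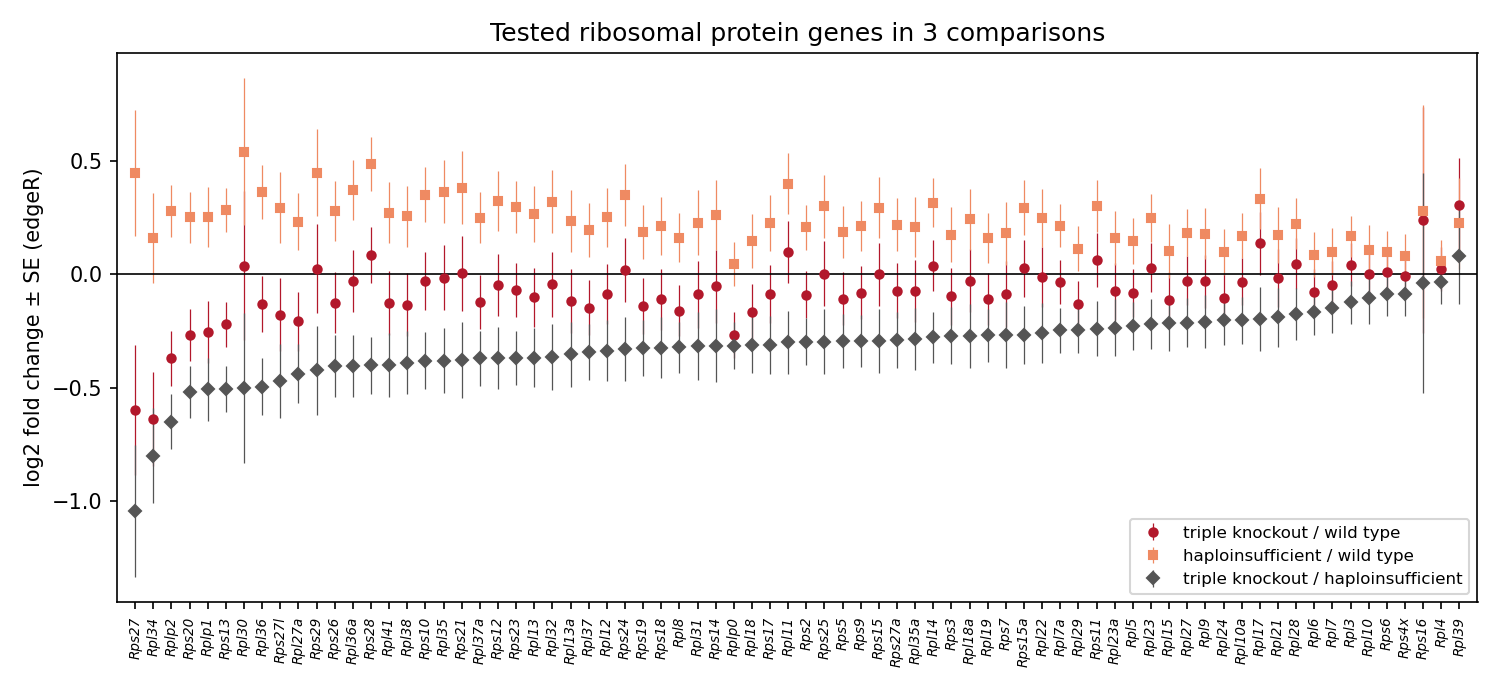
The log2 fold changes of the tested members (all but 1) with their edgeR standard errors, ordered by the comparison of triple-knockout with haploinsufficient hearts. Squares lie above 0 for every member shown, and diamonds below 0 for all of them but Rpl39.

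Ribosomal protein genes are short, and the medians of other short genes were shifted in the same directions. Tested members had 327 to 5134 merged exon bases with a median of 684, against 2959 for the other genes, and 59 of 75 were under 1000 bases. Among other genes within the whole range of member lengths, the median log2 fold change was 0.00 in triple-knockout against wild-type, 0.03 in haploinsufficient against wild-type and -0.03 in triple-knockout against haploinsufficient hearts. Within classes of length below 2000 bases, the medians of the other genes were farther from 0. Under 500 bases, members had a median of 0.28 and other genes of 0.40 in haploinsufficient against wild-type hearts. From 500 to under 750 bases the medians were 0.25 and 0.13, and from 1000 to under 2000 bases 0.17 and 0.07. At 2000 bases and over, the 3 members had a median of 0.25 and other genes of -0.01. These 3 include Rpl22 with 2040 merged bases and Rps15a with 5134. Merged length joins the exons of all annotated transcripts of a gene, so that it can exceed the length of the mRNA present.

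**Figure D5:**
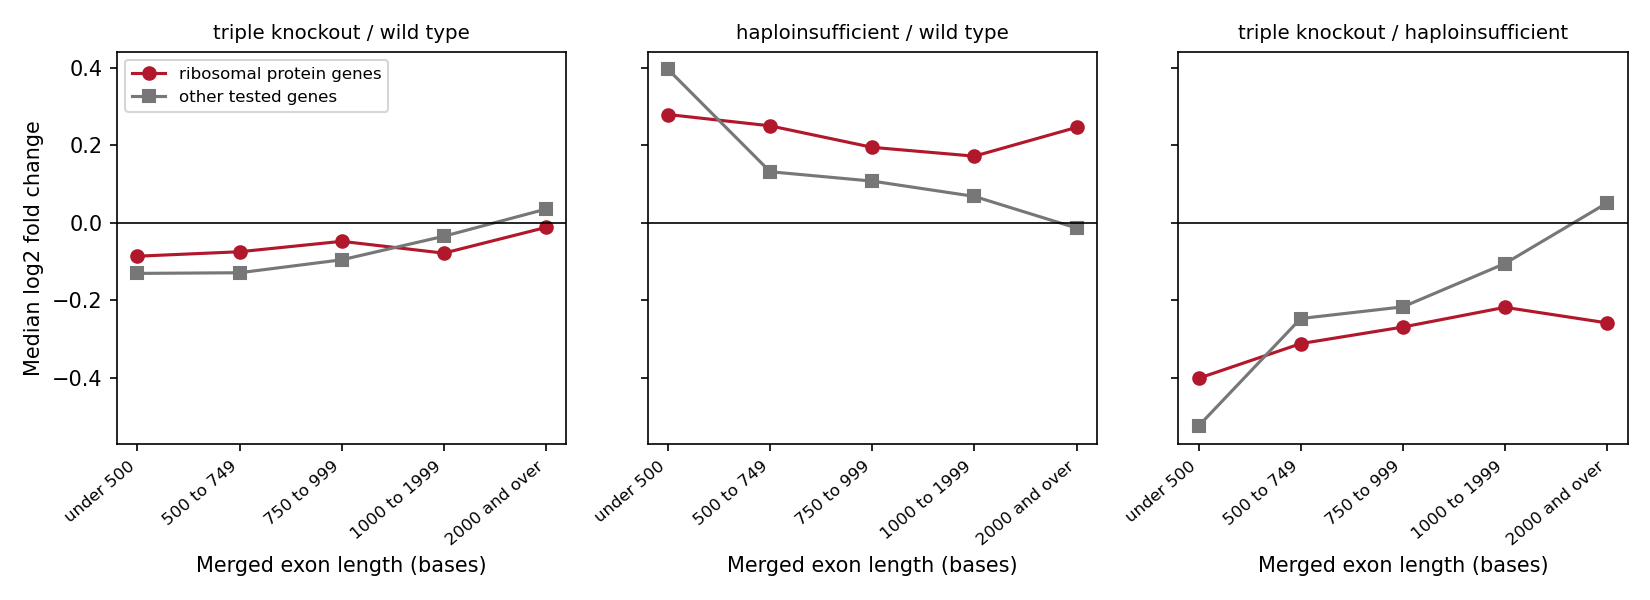
Median log2 fold change of ribosomal protein genes (circles) and of the other tested genes (squares) by class of merged exon length. In the comparisons with haploinsufficient hearts the other genes under 500 bases reach 0.40 and -0.52, beyond the members at 0.28 and -0.40.

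The same held between triple-knockout and haploinsufficient hearts, with medians of -0.40 for members and -0.52 for other genes under 500 bases, and -0.22 and -0.10 from 1000 to under 2000 bases, but -0.26 and 0.05 at 2000 bases and over. In 19 of 23 libraries the median of the members and that of the other genes under 500 bases lay on the same side of the wild-type mean, the exceptions being triple-knockout replicates 6 and 7 and wild-type replicates 1 and 2. Haploinsufficient replicate 4 had a member median of 0.84 and a median of 1.04 for other genes under 500 bases, and triple-knockout replicate 2 had -0.27 and -0.64. With library offsets corrected for exon length, no member passed the test in any comparison. The share of all genes called in that fit is not given here. The medians were then 0.07 for triple-knockout against wild-type, 0.11 for haploinsufficient against wild-type and -0.04 for triple-knockout against haploinsufficient hearts. Rplp2 had -0.27 with an edgeR adjusted p of 0.354 between triple-knockout and haploinsufficient hearts under that correction. The part of exon length in the fold changes was not tested beyond these values.

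The library IDs fall into a set from 1 to 12 and a set from 19 to 30. Between triple-knockout and wild-type hearts the member median was -0.21 in the lower and 0.03 in the higher IDs. It was 0.28 and 0.16 between haploinsufficient and wild-type hearts, and -0.49 and -0.13 between triple-knockout and haploinsufficient hearts. No member passed an edgeR test of the difference between the sets, with lowest adjusted p of 0.317, 0.702 and 0.147 in the 3 comparisons. Few of all genes did, at 20, 0 and 12 of 13941. Without the 7 libraries high in markers of neighbouring tissues, 3 triple-knockout, 3 haploinsufficient and 1 wild-type, the medians were -0.02, 0.20 and -0.24 and no member passed the test, in fits that also called fewer of all genes, 0.508%, 0.844% and 0%. The log2 fold changes of the members called before were then 0.55 for Rps28 against wild type, and -0.52 for Rplp2, -0.62 for Rps13 and -0.49 for Rps20 between triple-knockout and haploinsufficient hearts.

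The naming rule misses some ribosomal protein genes. Of 8 such genes, 1 rose in haploinsufficient against wild-type hearts, the Rpl22 paralog Rpl22l1, with 20.1 ± 6.63 CPM in haploinsufficient and 11.6 ± 1.67 CPM in wild-type hearts (SD, n = 8 each), a log2 fold change of 0.78 ± 0.18 and an edgeR adjusted p of 0.0142. The other 7, among them Rpsa and Fau, did not pass in any comparison.

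Of 40 ribosome biogenesis genes, 3 (7.5%) rose in haploinsufficient against wild-type hearts and 37 (92.5%) were positive, where 0.918% and 52.6% of all genes were, and their median was 0.21. They were Fbl, the methyltransferase fibrillarin, at 0.41 ± 0.10 (edgeR adjusted p 0.0364), Utp15 of the small-subunit processome at 0.42 ± 0.11 (0.0412), and Nop56, a partner of fibrillarin, at 0.40 ± 0.11 (0.0464). None of the 40 passed in the other comparisons. Of 20 translation factors and other genes with terminal oligopyrimidine mRNAs, 1 fell in triple-knockout against wild-type hearts, the initiation factor subunit Eif3k at -0.36 ± 0.09 (edgeR adjusted p 0.0481). None of 20 genes of mTOR signalling and tract binding, among them Mtor and Larp1, passed in any comparison, and their medians were 0.04, 0.01 and -0.03.

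Mitochondrial ribosomal proteins, which build a separate ribosome, had medians of -0.10, 0.12 and -0.25 over 76 genes in the same order of comparisons. In triple-knockout against wild-type hearts 2 of 76 (2.63%) fell, where 0.689% of all genes did. Mrps12 averaged 19.6 ± 2.24 CPM in triple-knockout (n = 7) and 31.4 ± 3.04 CPM in wild-type hearts (SD, n = 8), a log2 fold change of -0.68 ± 0.10 with an edgeR adjusted p of 7.46e-05. Mrpl52 fell by 0.52 on the log2 scale (0.0204). Against haploinsufficient hearts, Mrpl52 and Mrpl43 (2.63%) fell, by 0.55 and 0.41, where 0.316% of all genes fell.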

How the data were processed

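RNA of 23 libraries was analysed. Per the labels' protocols, ribosomal RNA was depleted and single-end reads of 50 nt were made without keeping the strand, so that antisense and overlapping genes cannot be told apart. The deposited table of the authors holds read counts per gene, which per the submitters' processing notes come from TopHat2 (version 2.0.10) and Bowtie2 on mm10 and from HTSeq. The authors also deposited FPKM values, for which the submitters' processing notes list Cufflinks (version 2.1). The deposited annotation gave exon positions, merged here to exon lengths. Reads were not realigned.

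The counts were fitted with edgeR 4.0.16 (R 4.3.3), using the quasi-likelihood test on the 23 libraries together, with terms for group and library ID set, TMM scaling, and the expression filter at a minimum count of 10 and total of 15. Two-sided p-values received the Benjamini-Hochberg adjustment over all features that passed the filter, with a threshold of 0.05. These were the 13941 genes and any features of Cre, GRK2, GRK5, GRK6 and Nkx2-5 that passed. The latter features were then left out of all counts of genes. The test of the difference between ID sets was adjusted over the 13941 genes alone. The common biological coefficient of variation was 0.208. CPM uses TMM-scaled sizes. DESeq2 1.42.0 on the counts and limma 3.58.1 on log2(FPKM + 1) were alternatives. A count of 3 corresponds to 0.214 CPM in the deepest and 1.71 CPM in the shallowest library. Simulated counts carried 1.5-fold changes in genes drawn from outside the members, with noise independent between genes. Of these changes, 50% were recovered in triple-knockout against wild type, 52% in haploinsufficient against wild type and 46% in triple-knockout against haploinsufficient. Recovery for members was not simulated. No near-identical libraries were seen within groups, where chi-square per degree of freedom between libraries was at least 5. Libraries of different groups were not compared.

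Named genes were Rplp2, members called, the 3 highest and lowest in each comparison, the 5 highest and lowest levels, paralogs and untested members, role classes, and up to 4 genes a list. Members and lists were chosen with earlier results of these data known. Classes of exon length, the set without libraries high in neighbouring-tissue markers and the interaction with ID set were added after seeing the data. Values of 1 member and of 1 gene of a list are not reported here. Start windows come from RefSeq (GRCm38.p6).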

Additional observations from a re-analysis of the deposited data

Results flagged for a closer look

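Single libraries far from the rest of their group were found in 18 of 81 groups of values examined, where chance gives about 1 in 20 for independent groups. These groups share libraries and are not independent. Most were haploinsufficient replicate 4. There the members together took 7.145% of counts and had a median of 0.8416 (log2) above the wild-type mean. Its CPM was 1208 for Rpl17, 171.8 for Rpl39, 809.7 for Rps28, 1293 for Rpl4, 1061 for Rps20, 2426 for Rplp1, 2443 for Rpl41, 1706 for Rps12, 463.9 for Rps15a and 1143 for Rpl10. Its other genes under 500 bases were also high, with a median of 1.04, and its summed heart muscle CPM was the lowest, while by the mean log2 level of those markers haploinsufficient replicate 7 and triple-knockout replicate 7 were lower. The part of these in the member values was not tested.

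Outside that library, Rps16 had 500 CPM in triple-knockout replicate 3, Rps27 had 7.012 CPM in wild-type replicate 1 and Rps13 had 386.7 CPM in wild-type replicate 5. Among members with few counts, Rpl3l had 6.969 CPM in haploinsufficient replicate 2, and Rpl10l had 0.9214 CPM in haploinsufficient replicate 6 and 0.8554 CPM in wild-type replicate 2.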

How the results depend on the processing

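Members lower in triple-knockout against haploinsufficient hearts were 3 in the analysis as reported and 1 with the replicate block. With DESeq2 they were 9, and the share of all genes called in that setting is not given here. They were 0 with limma on log2(FPKM + 1), with a pseudocount of 0.1 or without the FPKM filter. They were also 0 with the compared groups alone, with either set of library IDs alone, and with offsets for exon length. For these settings and for limma, the shares of all genes called are not given here in any comparison. Without the libraries high in neighbouring-tissue markers they were 0 as well. Leaving out a library gave 1 to 17, a member median of -0.35 to -0.20 and 10 to 414 genes called. The median was -0.0363 with exon-length offsets. Members higher in haploinsufficient against wild-type hearts, 1 as reported, were 0 with limma in its 3 settings, with either ID set, with exon-length offsets and without the marker-high libraries, and 2 with the genes the rule misses. Leaving out a library gave 0 to 7, a median of 0.12 to 0.28 and 159 to 614 genes. Members lower in triple-knockout against wild-type hearts were 1 with the compared groups alone, and 0 to 1 when a library was left out, with a median of -0.10 to -0.01 and 110 to 188 genes. With the missed members the shares were 4.69% in triple-knockout, 5.57% in haploinsufficient and 4.85% in wild-type hearts. The causes were not tested.

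The replicate number was not treated as a pairing. Correlations of same-numbered libraries ran from -0.19 to 0.47, without differently numbered libraries beside them, so that pairing was not excluded. With the replicate block 145, 224 and 16 genes were called in the 3 comparisons, against 165, 318 and 55. Of 2440 values for named genes, 2342 kept their side of the threshold with the same sign or a shift under 1 SE, 30 moved by more with a change of sign, 55 lost and 13 gained a call. The sign changed in 115, none of them called. Few counts limit Rpl26, Rpl30, Rpl34, Rps27, Rpl3l, Rpl10l and Rpl39l.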
